A study of Mus musculus with 4 samples.

Results

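Klk1 and 7 of its relatives in the mouse Klk1b cluster, Klk1b8, Klk1b16, Klk1b21, Klk1b22, Klk1b24, Klk1b26 and Klk1b27, were followed across testis RNA of Fam46c knockout (KO) and wild-type (WT) mice. They are 8 of 22552 gene symbols measured. They were picked by name, with the KO and WT values already known. Their differences between the genotypes are therefore given as a description, and nothing is concluded from how many of them differ. The libraries were 2 from testes of adult male Fam46c KO mice, set against 2 from testes of adult male WT mice, all of a DBA/C57 F1 background. FAM46C, a poly(A) polymerase of the noncanonical kind, adds adenosines to the tail of RNA, and the study looked for testis genes that depend on it. Which part of the gene was mutated is unstated here, and the Fam46c transcript was at 130.5 and 129.9 FPKM in the KO libraries, against 236 and 134 FPKM in the WT libraries (limma adjusted p = 1), so this level does not check the labels. Nothing states that the libraries of a genotype came from separate animals, so p-values here cover library-to-library spread alone, part of which can be technical.

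Tissue kallikreins are secreted serine proteases that are made as inactive precursors and activated by cleavage. KLK1 releases kinins, short peptides that widen vessels and contract smooth muscle, from a precursor called kininogen. In the mouse the ancestral gene has been copied many times, and the copies, the Klk1b genes, have come to cut other substrates, among them precursors of growth factors and of renin. In the mouse testis, Klk1b21, Klk1b24 and Klk1b27 are known from the Leydig cells, the hormone-producing cells between the tubules, and kallikrein genes respond to androgens in other mouse organs such as the submandibular gland.

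The unit is FPKM, a fragment count divided by transcript length and by the library's mapped fragments, which allows levels of different genes to be compared per length. Total FPKM lay between 489702 and 528756 per library. Low values move in steps of single fragments, and the steps put the depth of the KO libraries at 0.781 and 0.905 of WT replicate 2 and that of WT replicate 1 at 0.901 of it. With GENCODE M21 transcript lengths, WT replicate 2 held roughly 21500000 to 23400000 fragments. At that depth Klk1b8 would rest on roughly 914 to 1290 fragments per library, and Klk1b16 on roughly 7 and 8 in the KO libraries and 33 and 72 in the WT libraries. Counting error alone would then be 2.78% to 3.31% for Klk1b8 and 35.4% to 38.2% for Klk1b16 in the KO libraries.

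The members are close but not near-identical copies, and 3 of them form a subgroup by sequence. The aligned transcripts of the 8 members in GENCODE M21 were 82.0% to 94.1% identical over 28 pairs, with a median of 86.4%. Klk1b21, Klk1b24 and Klk1b27 were 93.3% to 94.1% identical to each other and 84.2% to 89.2% identical to the other 5 members. Other close pairs were Klk1b8 with Klk1b26 at 93.0% and Klk1b16 with Klk1b26 at 91.9%. With genes outside the 8, Klk1 and Klk1b5 were at 94.2% and Klk1b24 and Klk1b11 at 91.2%. Klk1b1 and Klk1b9, both outside the 8, were at 93.3%. Close as they are, the copies can be told apart by long reads. Of the 50-base stretches of a member's transcript, 66.1% (Klk1b24) to 89.9% (Klk1b16) occurred in no other gene of GENCODE M21, and of the 100-base stretches 93.9% (Klk1) to 100% (Klk1b22). At 150 bases the share was 100% for all 8 members. Neither the read length nor the handling of fragments with several matches is stated, and the reference is of C57BL/6J while the mice were DBA/C57 hybrids, so single-gene values remain less certain than those of unique genes.

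**Figure D1:**
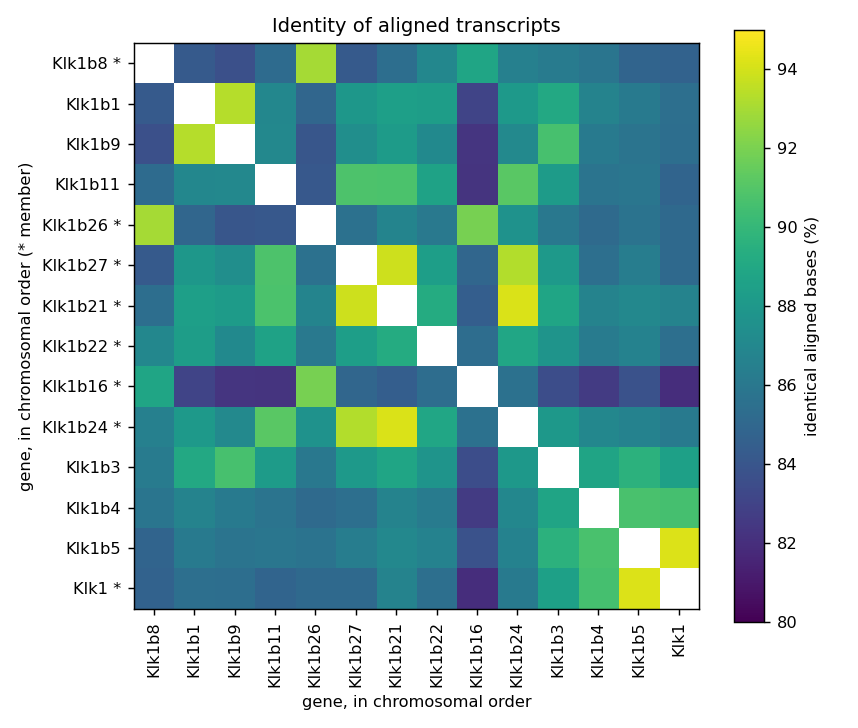
Percentage of identical bases in pairwise alignments of GENCODE M21 transcripts, for the 14 coding Klk1 and Klk1b genes in chromosomal order on both axes, with asterisks on the rows of the 8 members. The cells joining Klk1b27, Klk1b21 and Klk1b24 lie at 93.3% to 94.1%, and the cell of Klk1 with Klk1b5 is at 94.2%.

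The same 3 genes also stood together in the sequence before their start sites. RefSeq promoter windows (GRCm38.p6, 250 bases before to 50 after the start) matched all 8 members. Those of Klk1b21, Klk1b24 and Klk1b27 were 91.3% to 97.7% identical over their aligned parts. Their identity was 80.5% to 86.7% with the other 5 members and up to 88.1% with any other Klk1 or Klk1b gene. Other pairs also passed 91.3%, such as Klk1b4 with Klk1b5 at 92.8% and Klk1b16 with Klk1b11 at 91.6%. The 250 bases before each start are printed for this subgroup and, as the contrast, for Klk1b8, the most abundant member. All lie on the plus strand, at chr7:44102042-44102291 for Klk1b21, chr7:44187986-44188235 for Klk1b24, chr7:44052040-44052289 for Klk1b27 and chr7:43950416-43950665 for Klk1b8. Capitals mark bases that the subgroup shares and that none of the other 11 aligned Klk1 and Klk1b promoters holds. Only positions where at least 6 of these 11 have a base were marked.
Klk1b21: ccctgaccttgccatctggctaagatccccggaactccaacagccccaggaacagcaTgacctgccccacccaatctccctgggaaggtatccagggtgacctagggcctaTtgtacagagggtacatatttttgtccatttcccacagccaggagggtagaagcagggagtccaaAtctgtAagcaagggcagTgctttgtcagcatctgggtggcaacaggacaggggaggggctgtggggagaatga
Klk1b24: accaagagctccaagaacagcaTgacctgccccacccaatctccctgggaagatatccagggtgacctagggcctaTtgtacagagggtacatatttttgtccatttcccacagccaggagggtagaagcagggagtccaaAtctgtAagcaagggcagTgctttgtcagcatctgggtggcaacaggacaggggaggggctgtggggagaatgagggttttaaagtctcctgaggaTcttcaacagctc
Klk1b27: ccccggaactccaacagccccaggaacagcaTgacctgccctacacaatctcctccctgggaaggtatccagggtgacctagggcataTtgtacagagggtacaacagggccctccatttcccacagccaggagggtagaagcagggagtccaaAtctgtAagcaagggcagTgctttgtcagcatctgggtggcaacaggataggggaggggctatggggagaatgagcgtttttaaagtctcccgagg
Klk1b8: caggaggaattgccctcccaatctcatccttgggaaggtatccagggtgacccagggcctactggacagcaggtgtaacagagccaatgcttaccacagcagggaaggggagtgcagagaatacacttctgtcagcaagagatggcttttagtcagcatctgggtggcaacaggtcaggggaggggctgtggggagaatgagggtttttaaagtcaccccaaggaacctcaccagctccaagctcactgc
There are 5 such bases in the stretches of Klk1b21 and Klk1b27 and 6 in that of Klk1b24. The last of these 6 lies beyond the printed end of the stretches of Klk1b21 and Klk1b27. By the definition of the capitals Klk1b8 can hold none, so their absence from its stretch is not a result. The motif AGGTCA, the half-site of nuclear receptors such as NR5A1, occurred on either strand in 6 of 8 member windows, against 16.3% of 32851 RefSeq windows of the same length. It was in the windows of Klk1, Klk1b8, Klk1b21, Klk1b22, Klk1b24 and Klk1b27 and not in those of Klk1b16 and Klk1b26. AGAACA, the half-site of the androgen receptor, was in 1 window, that of Klk1b24, against 19.0% of all windows, and TATAAA was in 0 of 8, against 13.6%. TTTAAA, looked for after the sequences were seen, was in 7 of 8, against 13.2%. Motifs were counted with overlaps allowed, and since the windows are copies of each other these matches are not independent. A match describes the letters and says nothing of binding.

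Klk1b8 carried the largest part of the kallikrein signal in every library. It stood at 80.5 and 67.7 FPKM in the KO libraries, against 52.6 and 66.9 FPKM in the WT libraries, and its mean was above that of 93.6% of all symbols. That was 62.8% and 75.8% of the summed level of the 8 members in the KO libraries, against 47.9% and 44.3% in the WT libraries. The WT order behind it was Klk1b21, Klk1b24, Klk1b27, Klk1b26, Klk1b22, Klk1 and Klk1b16 in both libraries. In both KO libraries Klk1b26 came next after Klk1b8 and Klk1b27 after it, and Klk1 stood above Klk1b22. In WT, neighbours in the order from Klk1b21 to Klk1b26 overlapped in their libraries, as did Klk1 and Klk1b16. Klk1b8 lay clear of Klk1b21, Klk1b26 of Klk1b22, and Klk1b22 just clear of Klk1.

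**Figure D2:**
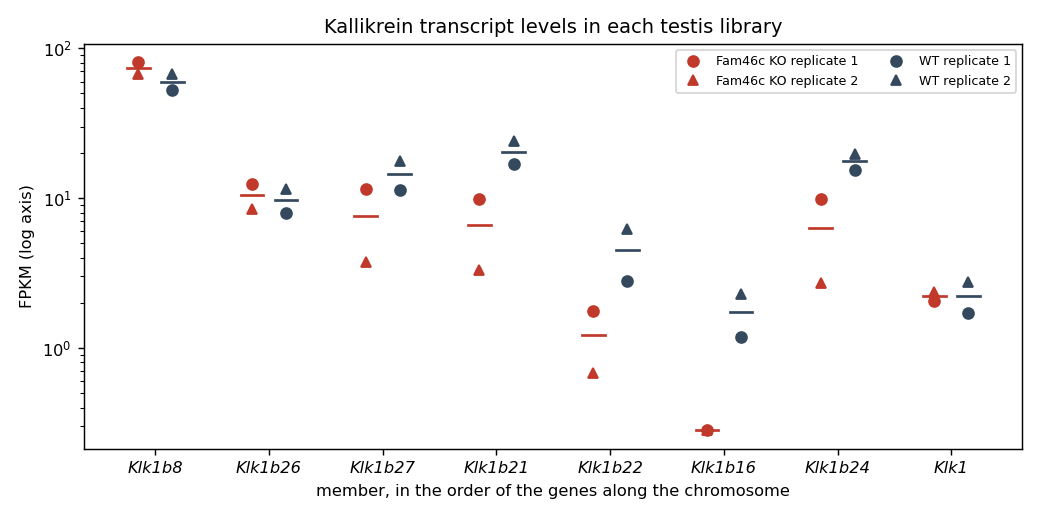
FPKM on a log axis for the 8 members in chromosomal order, with 1 symbol per library, a line at each group mean, and Fam46c KO left of WT. The KO symbols of Klk1b21, Klk1b22, Klk1b16 and Klk1b24 all lie below both WT symbols, those of Klk1b27 reach the WT range, and those of Klk1b8 lie above.

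The subgroup known from Leydig cells had lower means in KO, with KO replicate 2 lowest for each gene. In whole testes, fewer cells of a type and less RNA per cell cannot be told apart. Klk1b21 was at 9.80 and 3.33 FPKM in the KO libraries, against 16.9 and 23.9 FPKM in the WT libraries. The groups did not overlap, and the log2 fold change of FPKM + 1 was -1.63 (SE 0.32). Klk1b24, its closest copy, was at 9.93 and 2.71 FPKM in the KO libraries, against 15.4 and 19.8 FPKM in the WT libraries (log2 fold change -1.53, SE 0.36). Here too both KO libraries lay below both WT libraries. Klk1b27 was at 11.5 and 3.77 FPKM in the KO libraries, against 11.3 and 17.7 FPKM in the WT libraries (log2 fold change -0.98, SE 0.35). For this gene KO replicate 1 lay within the WT range and KO replicate 2 alone lay below it.

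Within the subgroup the ratios between copies can be set side by side. Klk1b21 over Klk1b24 was 0.987 and 1.23 in the KO libraries, against 1.10 and 1.21 in the WT libraries, so the genotypes overlapped. Klk1b27 over Klk1b24 was 1.16 and 1.39 in the KO libraries, against 0.738 and 0.895 in the WT libraries, without overlap. Summed, the 3 genes were at 31.3 and 9.81 FPKM in the KO libraries, against 43.6 and 61.5 FPKM in the WT libraries, or 20.5 ± 15.2 in KO and 52.5 ± 12.6 in WT (SD, n = 2 each).

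Klk1b22 and Klk1b16, both low, followed the same direction. Klk1b22, which encodes an epidermal growth factor-binding protein, was at 1.75 and 0.676 FPKM in the KO libraries, against 2.80 and 6.18 FPKM in the WT libraries (log2 fold change -1.28, SE 0.29). Klk1b16, which encodes gamma-renin, was at 0.281 and 0.284 FPKM in the KO libraries, against 1.18 and 2.31 FPKM in the WT libraries (log2 fold change -1.07, SE 0.20). Neither gene's groups overlapped. Klk1b16 reached the minimum mean of 1 FPKM for testing through its WT libraries alone, and its log2 fold change was -2.20 with 0.1 FPKM added in place of 1, and -0.35 with 5 FPKM added. Klk1b22 moved likewise, to -0.59 with 5 FPKM added.

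Klk1b8, Klk1b26 and Klk1 did not share this direction. Klk1b8 lay higher in both KO libraries than in either WT library, with a log2 fold change of 0.31 (SE 0.15) and KO replicate 2 only just above WT replicate 2. Klk1b26, which encodes a prorenin-converting enzyme, was at 12.4 and 8.47 FPKM in the KO libraries, against 7.90 and 11.5 FPKM in the WT libraries (log2 fold change 0.09, SE 0.20). Klk1, the kinin-releasing member, was at 2.05 and 2.36 FPKM in the KO libraries, against 1.70 and 2.74 FPKM in the WT libraries (log2 fold change 0.01, SE 0.19). For both genes the genotypes overlapped. Egfbp2, a symbol that GRCm38.p6 lists as another name of Klk1b26, has a row of its own at 1.75 and 0.667 FPKM in the KO libraries, against 1.16e-06 and 0.958 FPKM in the WT libraries, and adding it to Klk1b26 gave 14.1 and 9.14 FPKM in the KO libraries, against 7.90 and 12.5 FPKM in the WT libraries.

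No member passed the test across all genes. All 8 were among the 12258 symbols averaging 1 FPKM or more, and limma with Benjamini-Hochberg adjustment called 0 of 8 at an adjusted p under 0.05, where it called 0.114% of all genes tested in either direction and 0.0897% lower in KO. At an unadjusted p under 0.05 the members numbered 5 of 8, all lower in KO, against 2.02% of all genes in either direction and 1.11% lower in KO. The adjusted p was 0.146 for Klk1b16, 0.176 for Klk1b21, 0.342 for Klk1b22, 0.384 for Klk1b24 and 1 for Klk1b27, Klk1b8, Klk1b26 and Klk1 (limma). Both KO libraries lay below both WT libraries for 4 of 8 members, against 10.6% of all genes, and above them for 1 of 8, against 9.47%. The same 4 of 8 were also at least 2-fold lower in KO on the FPKM + 1 scale, against 0.204% of all genes tested that met both conditions. The median log2 fold change was -1.02 over the 8 members and -0.01 over all genes tested. Since the members were picked with this contrast in view, and Klk1b16 was tested through its WT libraries alone, nothing is read from these counts. The calls of the subgroup depended on the KO library. With KO replicate 1 left out, Klk1b21 passed the limma threshold at a log2 fold change of -2.29, Klk1b24 at -2.31 and Klk1b27 at -1.67. With KO replicate 2 left out, none passed, and the values were -0.97, -0.76 and -0.28. Klk1b22 passed without WT replicate 1 at a log2 fold change of -1.74 and did not pass without WT replicate 2, at -0.82. In each of these fits 1 genotype has a single library, whose spread is taken to be like that of the other.

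The sum of the 8 members overlapped between the genotypes, although 4 of its parts lay lower and 1, Klk1b8, higher in KO without overlap. It was 128 and 89.3 FPKM in the KO libraries, against 109.8 and 151 FPKM in the WT libraries, or 109 ± 27.6 in KO and 130.5 ± 29.2 in WT (SD, n = 2 each). The log2 ratio of the sums + 1 FPKM was -0.27, within the SD of 0.37 between the KO libraries and 0.32 between the WT libraries on that scale. Without Klk1b8 the sum was 47.7 and 21.6 FPKM in the KO libraries, against 57.2 and 84.2 FPKM in the WT libraries, without overlap and with a log2 ratio of -1.09. The sum of Klk1, Klk1b8 and Klk1b26 was 94.95 and 78.5 FPKM in the KO libraries, against 62.2 and 81.2 FPKM in the WT libraries. With 2 libraries against 2, an exact permutation test cannot give a two-sided p below 0.333, and no test was made on sums over the members. On the scale of log2(FPKM + 1), summing did not narrow the spread between the KO libraries for the subgroup. The SD was 1.12 for the 3 genes together and 0.93 to 1.10 for each alone. The added 1 FPKM shrinks the spread of lower values more, so it favours the single genes over their sum here.

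**Figure D3:**
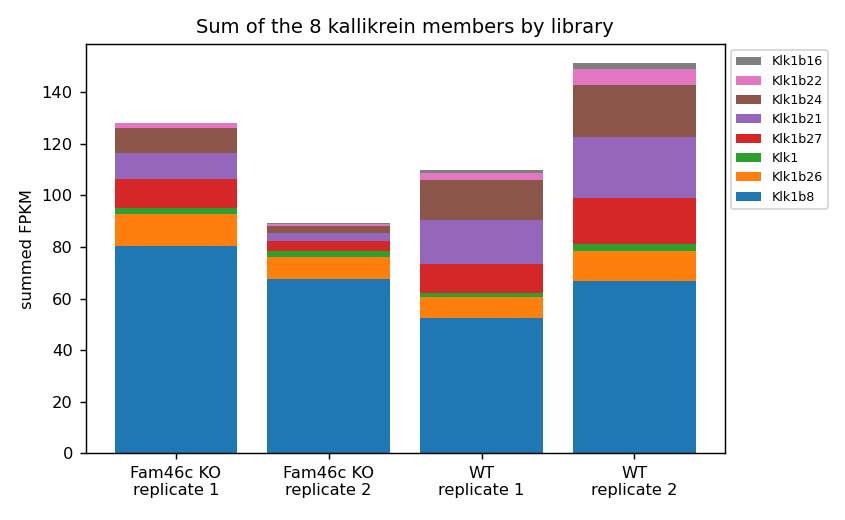
Summed FPKM of the 8 members in each library, with 1 colour per gene, the 2 Fam46c KO libraries left and the 2 WT libraries right. The Klk1b8 part is 52.6 to 80.5 FPKM high in all 4 bars, and the Klk1b21, Klk1b24 and Klk1b27 parts together come to 31.3 and 9.81 FPKM in KO, against 43.6 and 61.5 FPKM in WT.

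The 5 members with log2 fold changes of FPKM + 1 below 0 are neighbours. They were grouped by the sign of these same values, so their place is a description. In the RefSeq order of GRCm38.p6, Klk1b27, Klk1b21, Klk1b22, Klk1b16 and Klk1b24 take places 6 to 10 among the 14 coding Klk1 and Klk1b genes, with pseudogenes but no other coding kallikrein gene among them. Klk1b8 is at place 1, Klk1b26 at place 5 and Klk1 at place 14. Of the 8 other Klk1b and Egfbp2 symbols in the tables, 4 were tested and limma called 0. An unadjusted p under 0.05 was given to 0 of these 4, against 2.02% of all genes. Klk1b9, an epidermal growth factor-binding protein gene at place 3, was at 12.7 and 9.70 FPKM in the KO libraries, against 7.78 and 15.2 FPKM in the WT libraries. Klk1b3, which encodes the gamma subunit of nerve growth factor and follows Klk1b24, was at 2.26 and 1.81 FPKM in the KO libraries, against 1.38 and 3.40 FPKM in the WT libraries. These genotypes overlapped on both sides of the run. The transcribed pseudogene Klk1b7-ps, which precedes Klk1b8, was at 17.7 and 26.3 FPKM in the KO libraries, against 15.8 and 17.2 FPKM in the WT libraries, without overlap. The log2 fold change stood at 0.37 (SE 0.18, by limma with an adjusted p = 1). Klk1b5 had a log2 fold change of -0.19 (SE 0.26). Below the minimum for testing, Klk1b4, the alpha subunit gene of nerve growth factor, was between 0.272 and 0.852 FPKM, and Klk1b11 was listed at 0 in all 4 libraries. Klk1b1 was listed at 0 in both KO libraries, against 0.622 and 1.19 FPKM in the WT libraries, or roughly 11 and 23 fragments. At place 2, Klk1b1 thus had the direction of the run while lying outside it. Place and sequence go together in part only: Klk1b16 lies within the run although its transcript is closest to Klk1b26.

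**Figure D4:**
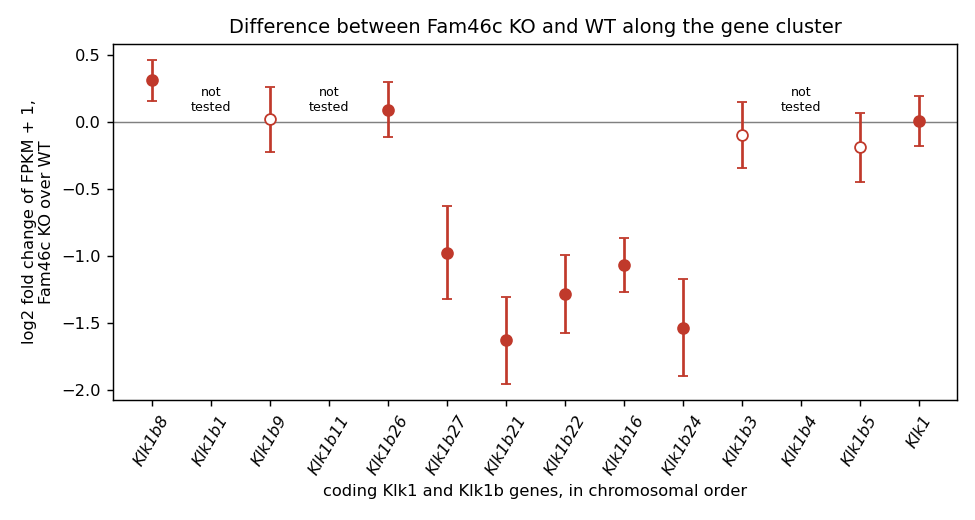
Log2 fold change of FPKM + 1, Fam46c KO over WT, with its standard error, for the coding Klk1 and Klk1b genes in chromosomal order, with filled symbols for members and open ones for other genes. The 5 neighbours from Klk1b27 to Klk1b24 lie between -1.63 and -0.98, and the tested genes on either side lie between -0.19 and 0.31.

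The other tissue kallikreins, the kininogens and the kinin receptors were at low levels or listed at 0 in these testes, whereas Ace and Agt were abundant. The 12 other tissue kallikreins, Klk4 to Klk15, reached at most 0.362 FPKM, 5 of them were listed at 0 in all 4 libraries, and 0 were tested. Of 20 genes of the kinin system and of kallikrein substrates and inhibitors, 8 were tested and limma called 0. An unadjusted p under 0.05 was given to 3 of the 8, all lower in KO. Of all genes tested, 2.02% had one in either direction and 1.11% lower in KO. The kininogen genes Kng1 and Kng2 and the kinin receptor genes Bdkrb1 and Bdkrb2 stayed under 0.382 FPKM. Ace, whose product degrades kinins and has a germ cell form, was at 167 and 167 FPKM in the KO libraries, against 153 and 179 FPKM in the WT libraries. Agt, which encodes the precursor of angiotensin, was at 37.4 and 18.2 FPKM in the KO libraries, against 57.1 and 64.4 FPKM in the WT libraries. The log2 fold change stood at -1.18 (SE 0.25, by limma with an adjusted p = 0.203). It passed without KO replicate 1, at a log2 fold change of -1.68. The rule for naming genes took Agt and the next 3 genes, while Kng1, Kng2, Bdkrb1, Bdkrb2 and Ace were named after their values were seen. Serping1 and Serpina3c, which encode protease inhibitors, had log2 fold changes of -0.64 (SE 0.21) and -0.42 (SE 0.17), and Cpn1, a carboxypeptidase gene, one of 0.25 (SE 0.16), each with a limma adjusted p of 1.

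Other transcripts of Leydig cells gave mixed values beside the subgroup. Insl3, an insulin-like hormone of these cells, was at 379 and 189 FPKM in the KO libraries, against 1099.6 and 1136 FPKM in the WT libraries. The log2 fold change stood at -2.06 (SE 0.24, by limma with an adjusted p = 0.00507). It was the 1 gene called of 14 tested in a list of 16 Leydig cell genes, none of which was listed at 0 throughout, and its call ended without either WT library, after median scaling or quantile normalization, with robust variance and with no filter (limma adjusted p of 0.0626 to 1). Without Insl3 the summed list was 365 and 220 FPKM in the KO libraries, against 285 and 371 FPKM in the WT libraries, so the genotypes overlapped. Star, the cholesterol carrier of steroid synthesis, was at 12.3 and 4.0 FPKM in the KO libraries, against 7.75 and 13.0 FPKM in the WT libraries. The steroidogenic Cyp11a1 was at 68.6 and 32.4 FPKM in the KO libraries, against 52.5 and 63.8 FPKM in the WT libraries. As with these genes, KO replicate 2 was the lowest library for Cyp17a1 and Hsd17b3, and KO replicate 1 was not below WT replicate 1. Hsd3b6, a dehydrogenase of adult Leydig cells, was at 2.35 and 1.503 FPKM in the KO libraries, against 4.94 and 17.1 FPKM in the WT libraries (log2 fold change -1.84, limma adjusted p = 0.203), and passed without WT replicate 1 at -2.64. Adh1, an alcohol dehydrogenase gene, had a log2 fold change of -0.62 (limma adjusted p = 1). Both KO libraries lay below both WT libraries for 4 of the 14 tested genes of the list, against 10.6% of all genes. These were Insl3, Hsd3b6, Adh1 and, only just, Por. Both KO libraries lay above both WT libraries for 0 of the 14, against 9.47%. Lhcgr, the receptor gene for luteinizing hormone, was between 0.617 and 1.17 FPKM and not tested, and Hsd3b1 overlapped between the genotypes. Measured against the list without Insl3, the sum of Klk1b21, Klk1b24 and Klk1b27 was 8.56% and 4.45% in the KO libraries, against 15.3% and 16.6% in the WT libraries, without overlap. Against Insl3 it was 8.25% and 5.19% in the KO libraries, against 3.97% and 5.41% in the WT libraries. On this measure the genotypes overlapped, and KO replicate 1 was the highest library. Klk1b8 against the list without Insl3 was 22.0% and 30.7% in the KO libraries, against 18.4% and 18.0% in the WT libraries.

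**Figure D5:**
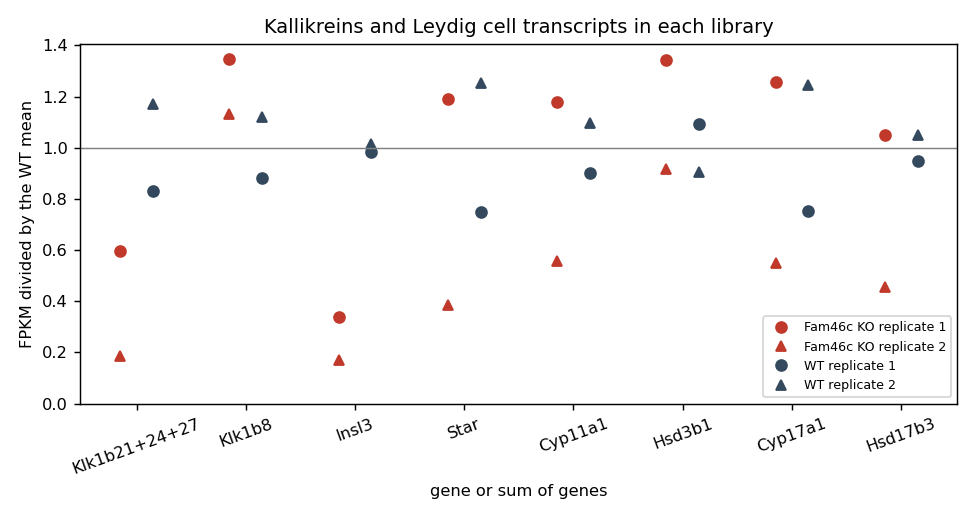
FPKM divided by the WT mean for the sum of Klk1b21, Klk1b24 and Klk1b27, for Klk1b8 and for Leydig cell genes, with 1 symbol per library, Fam46c KO left of WT, and a line at 1. The kallikrein sum and Insl3 lie below both WT symbols in both KO libraries, whereas for Star, Cyp11a1, Cyp17a1 and Hsd17b3 KO replicate 2 alone lies below them. Hsd3b6, Adh1 and Por, also lower in both KO libraries than in both WT libraries, are not drawn.

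Markers of other cells gave these values beside the subgroup. The 7 blood genes summed to 12.7 and 8.74 FPKM in the KO libraries, against 50.6 and 40.7 FPKM in the WT libraries. Limma called 2 of 4 tested lower in KO, against 0.0897% of all genes. These were Hba-a1 and Beta-s (limma adjusted p of 3.82e-06 and 1.34e-05), while Hbb-b2 (0.121) and Alas2 (1) were not called. Hba-a1 and Hbb-b2 reached the minimum for testing through their WT libraries alone. The calls of Hba-a1 and Beta-s ended with no filter on low values. The 14 Sertoli cell genes, all of them at levels high enough to be tested, summed to 915 and 904 FPKM in the KO libraries, against 1085 and 814 FPKM in the WT libraries. The 11 genes of the tubule wall and vessels summed to 45.9 and 42.5 FPKM in the KO libraries, against 49.99 and 41.5 FPKM in the WT libraries, and the 12 macrophage genes to 456 and 443 FPKM in the KO libraries, against 384 and 417 FPKM in the WT libraries. Most of the macrophage sum was Aif1, and without it the sum was 40.03 and 39.6 FPKM in the KO libraries, against 56.4 and 41.4 FPKM in the WT libraries, so that the direction turned. The 14 epididymal genes, of which 6 were listed at 0 throughout, summed to 480.2 and 479 FPKM in the KO libraries, against 373 and 440 FPKM in the WT libraries. Nearly all of this was Cst8. Without Cst8 the sum was 7.07 and 5.35 FPKM in the KO libraries, against 4.91 and 4.86 FPKM in the WT libraries, without overlap. In these 4 lists limma called 0 of 14, 0 of 8, 0 of 10 and 0 of 4 tested genes. At an unadjusted p under 0.05 they held 0, 0, 1 (H2-Aa) and 1 (Defb41), against 2.02% of all genes. Defb41 reached the minimum for testing through its KO libraries alone. The genes of smallest p were Gata4, Amh, Inha and Amhr2 among Sertoli genes, with log2 fold changes of -0.22 to 0.25. They were Cnn1, Des, Eng and Tagln for the tubule wall and vessels, with -0.09 to 0.26, and H2-Aa, Cd74, Aif1 and H2-Ab1 for macrophages, with -0.57 to 0.22. For the epididymis they were Defb41, Cst8, Spink8 and Rnase10, with -0.14 to 0.88. The part of blood, or of any of these cells, in the kallikrein values was not tested.

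Other transcripts can be ranked by how closely their profile over the 4 libraries followed the kallikreins. Likeness was the root mean square difference of log2(FPKM + 1), each profile centred on its mean. Nearest to the sum of the 8 members were Vmn1r181, Nqo1, Capns2, Osr2, Pcdhga12 and Acy3, at 0.0323 to 0.0586, all of them under 7 FPKM in every library. Nearest to the sum of Klk1b21, Klk1b24 and Klk1b27, a profile chosen after the values were seen, were Agt at 0.283 and Insl3 at 0.379, followed by Lrg1, Fxyd1, Mrap and Apoc1 at 0.392 to 0.437. With 4 libraries and 12258 genes some profiles lie close to any other, so these ranks are a description.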

How the data were processed

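The authors deposited 1 table of FPKM values per library, with gene symbols in the first column, per the file headers. Per the submitters' processing notes, TopHat2 2.0.6, Cufflinks 2.0.2, Cuffdiff and mm9 were involved, with no role stated. The annotation, strand setting, read length and handling of fragments that match several similar genes are unstated, and the last could touch every kallikrein value. FPKM of the 259 symbols on several rows were summed; each kallikrein symbol had 1 row. KO and WT were compared on log2(FPKM + 1) for symbols averaging 1 FPKM or more, with limma 3.58.1 (R 4.3.3, mean-variance trend, 2 residual and 9.48 prior degrees of freedom, two-sided, Benjamini-Hochberg adjusted p under 0.05), after tests on simulated data. Without a label for pairing, no replicate block was used. Transcripts (GENCODE M21) and promoters (RefSeq, GRCm38.p6) were aligned with Biopython 1.88 and mafft 7.526. Their build differs from mm9, so they describe the genes only.

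The members, lists and tests were chosen with earlier results of these data known. The named genes are the 8 members, every other Klk1b symbol, up to 4 tested genes of smallest p from each list, 8 set Leydig cell genes and the 6 genes of nearest profile. The replacement of pseudocount, filter, scaling and variance settings, and the removal of each library, were the alternatives. Counting errors cover counting only.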

Additional observations from a re-analysis of the deposited data

How the results depend on the processing

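The number of genes called by limma, 14 in all, was 13 with a pseudocount of 0.1 or 5 FPKM and with no variance trend, 9 with a mean of at least 5 FPKM, 8 with robust variance, 7 after total scaling, 6 after median scaling or quantile normalization, 1 with no filter, and 9 to 21 with 1 library left out. The cause of these shifts was not tested. The log2 ratio of the 8-member sum stayed between -0.30 and -0.16 under other pseudocounts, scalings and the addition of the other Klk1b symbols, and between -0.52 and -0.01 with 1 library left out. It was -1.09 without Klk1b8, -1.50 for Klk1b21, Klk1b24 and Klk1b27 and -1.55 for these with Klk1b22 and Klk1b16, sums of which the 3-gene and 5-gene ones were chosen after seeing the data. The log2 fold changes of Klk1b16, Klk1b21, Klk1b22, Klk1b24 and Klk1b27 were negative and that of Klk1b8 positive under every alternative that could be fitted. Those of Klk1 and Klk1b26 took both signs. Klk1, Klk1b16 and Klk1b22 have no value with a mean of at least 5 FPKM, nor Klk1b16 without a WT library.

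With the replicate number as a block, limma called 68 genes, among them Klk1b16, Klk1b21, Klk1b22, Klk1b24 and Klk1b27. That fit leaves 1 residual degree of freedom and an infinite prior, so a gene's own spread does not enter. The difference of replicate 1 from replicate 2 in KO and that in WT had a correlation across genes of -0.0254. Whether libraries with the same number share more than the number was not tested.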
